A study of Rattus norvegicus with 3 samples.

Results

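The genes described here are Alk, Alkal2, Ptn, Mdk and Ncam2, 5 of the 34034 features counted in a single-cell RNA library of rat thymic stroma. Alk and Ncam2 were chosen by their levels in these counts, in which they led the mesenchymal label TMC4 over the other mesenchymal labels, so that lead is a description and has no test. Alkal2, Ptn and Mdk were chosen as genes of proteins described as ligands of the ALK receptor. The thymi came from Lewis rats, an inbred strain, 8 weeks old and with no treatment named. The stromal library was made from cells lacking CD45, the surface protein of blood-derived cells, and a second library was made from thymocytes, the organ's developing T cells. A spatial section of the same series is not used here. Neither the number nor the sex of the animals is given in the sources used here, and with 1 sample in each group there is neither a test nor a p-value.

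ALK is a receptor tyrosine kinase, a cell surface receptor that phosphorylates itself and adaptor proteins once a ligand has brought its chains together. It is known best from the developing nervous system, and its established ligands are the small secreted proteins ALKAL1 and ALKAL2. Pleiotrophin (Ptn) and midkine (Mdk) are heparin-binding growth factors of 1 family that were also reported to act through ALK, and that bind a receptor phosphatase, syndecans, integrins and LRP1. NCAM2 is an adhesion molecule of the immunoglobulin superfamily, known from olfactory axons. Mesenchymal cells of the thymic medulla are known for the chemokines CCL19 and CCL21, which draw maturing thymocytes.

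Levels are given as CPM, a gene's counts in a label per 1000000 counts of that label, where a count is a unique molecular identifier (UMI), the tag of a captured RNA molecule. Labels are the authors' own: TMC1 to TMC4 and capFb are treated as the mesenchymal labels and vSMC_PC as a mural one. The files do not spell the names out. Epithelial markers summed to 994 to 6234 CPM in the labels named TEC, early Pr or mimetic and to at most 705 elsewhere. Endothelial markers summed to 2699.8 to 3768 CPM in aEC, capEC and vEC, and mesothelial ones to 5089 in MEC. All 1249 TMC4 cells (9.44% of the annotated cells) had the label from the authors' clustering and none from projection onto a reference. Intervals are 95% intervals that cover counting error alone, not differences between animals. In the stromal library 13226 cells were annotated, with 131624350 UMIs in all and 9088 in the median cell. In the thymocyte library 8546 were, with 64440495 UMIs and 3994 in the median cell. The stromal cells held 2503 UMIs of Alk, 214 of Alkal2, 193039 of Ptn, 20045 of Mdk and 3595 of Ncam2. The thymocyte-library cells held 16, 6, 270, 98 and 23. Both libraries share 38 cell barcodes, of which 28 were annotated in both and 3 were TMC4 cells. Without the shared barcodes, TMC4 over the highest other mesenchymal label was 9.40 for Alk and 6.69 for Ncam2, against 9.39 and 6.69 with them.

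The TMC4 label was checked against markers. Ccl19, Ccl21, Il33, Vcam1 and Tnfsf11 summed to 39029.9 CPM in TMC4, against 10041 in TMC3, 1693 in capFb, 1098 in TMC1 and 887 in TMC2. Outside the mesenchymal labels, the same sum was 21904 in vSMC_PC and 17322 in mTEC1. All 7 general mesenchymal markers were detected in TMC4, but their sum, 9456 CPM, was the lowest of the 5 mesenchymal labels, which otherwise ran from 21989 in TMC3 to 55322 in capFb. Labels outside these also had larger sums than TMC4: aaTEC2 (34804), nmSC (21373), MEC (16956), Thymocyte (13640.1) and aEC (9765). This sum thus does not set TMC4 apart from them. By gene, Pdgfrb was highest in TMC4 of the 5 mesenchymal labels (534 CPM, with TMC3 next at 356), and vSMC_PC had 402. Pdgfra, Col1a1, Col1a2, Col3a1, Dcn and Lum were lowest in TMC4 of the 5. Mural markers (Acta2, Myh11, Rgs5, Notch3 and Tagln) summed to 4560.3 CPM in TMC4 and 1742 in TMC3, against 26.0 to 34.6 in the other 3 labels and 9083 in vSMC_PC. Most of the sum was Tagln in TMC4 (4114 CPM) and TMC3 (1544), and Tagln was at 5342 in vSMC_PC. Acta2 was at 119 CPM in TMC4 and 1266 in vSMC_PC, Myh11 at 38.9 and 998, Rgs5 at 97.9 and 895, and Notch3 at 190.3 and 582. The 10 thymocyte genes summed to 7.73 to 11.6 CPM in the 5 mesenchymal labels and to 7064 in the cells labelled Thymocyte.

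The sequences ahead of Alk and Ncam2 are shown because both genes had their largest share of UMIs in TMC4. Of the 5 genes, 4 had an entry among the RefSeq promoters of the GRCr8 assembly. Given here are the first 175 bases of each entry, the most that lie ahead of the first base of the gene in both, so that each run ends before it. Capitals mark the GC box, GGGCGG, or its other strand, CCGCCC, the letters that SP1-type factors are known to bind.
Alk, chr6:28631227-28631401 (GRCr8, plus strand): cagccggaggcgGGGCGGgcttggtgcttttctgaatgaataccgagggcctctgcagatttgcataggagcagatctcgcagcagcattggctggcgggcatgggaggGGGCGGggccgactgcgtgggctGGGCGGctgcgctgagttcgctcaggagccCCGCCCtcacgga
Ncam2, chr11:33591573-33591747 (GRCr8, plus strand): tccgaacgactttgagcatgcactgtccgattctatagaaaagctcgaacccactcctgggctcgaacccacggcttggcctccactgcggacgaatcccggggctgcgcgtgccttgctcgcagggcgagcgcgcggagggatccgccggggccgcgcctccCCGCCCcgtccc

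The Alk run held 4 GC boxes and the Ncam2 run held 1, and 20.1% of the same 175 bases of 33469 promoters held at least 1. Alk also held 1 CCAAT box (CCAAT or ATTGG), found in 25.2% of promoters, and Ncam2 held none. Neither run held TATAAA or its other strand (8.79% of promoters) or an E-box, CANNTG (53.5%). No motif searched overlapped another in these runs. Both runs were rich in G and C, at 67.4% for Alk and 68.6% for Ncam2 against a median of 50.3%, and 89.4% and 91.5% of promoters lay below them. These matches describe the letters of the window and were not tied to any binding.

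Alk, the receptor, was found mainly in TMC4. TMC4 held 2014 Alk UMIs, which is 174 CPM (167 to 182) and 80.5% of the Alk UMIs of all annotated stromal cells. TMC3 followed among the mesenchymal labels with 196 UMIs at 18.6 CPM (16.0 to 21.3). TMC1 held 9 UMIs at 0.641 CPM, TMC2 14 at 0.525 and capFb 6 at 0.371. TMC4 thus stood 9.39-fold above TMC3 (8.11 to 10.9), 272-fold above TMC1 (143 to 595), 332-fold above TMC2 (198 to 609) and 469-fold above capFb (215 to 1281). Against these 4 labels pooled, at 3.34 CPM, it stood 52.2-fold higher (45.5 to 60.2).

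Outside the mesenchymal labels, Alk was highest in nmSC, a label of 39 cells, with 11 UMIs at 38.8 CPM (19.4 to 69.4). The mural label vSMC_PC followed with 77 UMIs at 22.8 CPM, TMC3 came next, and aEC had 17.5. Below TMC4, each neighbour in the order down to capFb had a ratio interval that holds 1, so adjacent labels did not differ beyond counting error. TMC4 itself lay 4.49-fold above nmSC (2.51 to 9.01) and 7.63-fold above vSMC_PC (6.08 to 9.71). Over the highest other label with more than 3 UMIs, whichever that was, its ratio was 2.58 as the mean of the cells' CPM. After thinning to 5000 UMIs that ratio was 7.19. Mural markers were higher in TMC4 and TMC3 than in TMC1, TMC2 and capFb, as Alk was. The label vSMC_PC, with the largest mural sum, lay below TMC4 for Alk. It did not differ from TMC3 beyond counting error (ratio 1.23, 0.933 to 1.61). The mural sum was 2458 CPM in mTEC1, above that of TMC3. Whether mural RNA bears on the Alk levels was not tested. Among epithelial labels, mTEC1 had 5.44 CPM, mTEC2 5.71, cTEC 2.81 and early Pr 1.24. No Alk UMI was found in aaTEC1, mTEC-prol, mimetic(muscle) or mimetic(tuft), small labels in which 0 UMIs allow levels of up to 5.85, 2.70, 7.08 and 13.1 CPM by the exact interval.

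**Figure D1:**
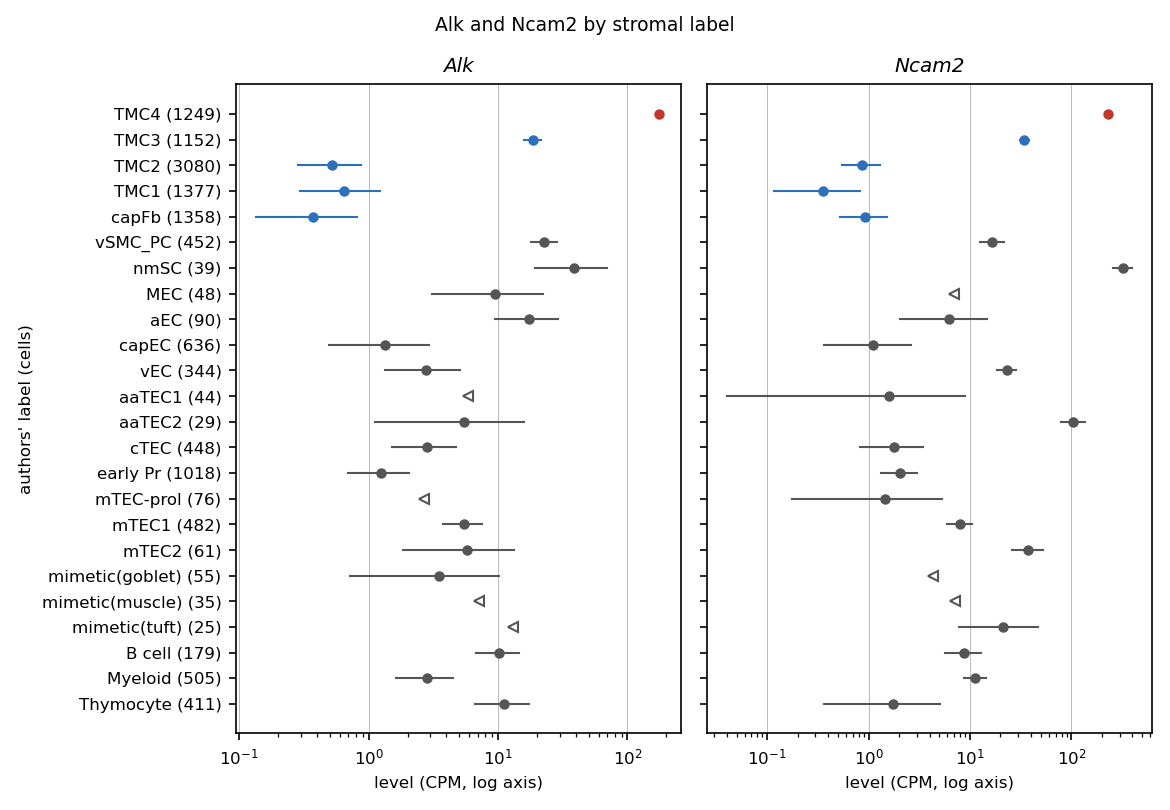
Levels of Alk and Ncam2 (CPM, log axis) in the 24 stromal labels of at least 20 cells, with cell numbers in brackets. Points are summed UMIs over label totals, lines are exact Poisson intervals, and open triangles are upper limits of labels with 0 UMIs. TMC4 (red) had the highest Alk level at 174, and TMC2, TMC1 and capFb (blue) were under 1 for both genes, while nmSC had the highest Ncam2 level at 321.

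A UMI of Alk was found in 609 of 1249 TMC4 cells, a share of 48.8% (exact Clopper-Pearson interval 46.0 to 51.6) at a median depth of 8717 UMIs. The share was 9.55% in TMC3, 0.581% in TMC1, 0.442% in capFb and 0.422% in TMC2. Of the blood-derived labels, Myeloid had 1.19% at a median depth of 9510.0, Thymocyte 1.22% at 2648 and B cell 4.47% at 14761. The part of free RNA in these shares was not tested. With each cell thinned to 5000 UMIs, the shares were 39.3% in TMC4, 6.44% in TMC3, 0.822% in Myeloid and 2.52% in B cell. With 1000 UMIs the TMC4 share was 14.0%. Within TMC4, the share was larger in deeper cells. Split into 4 equal groups by UMIs per cell, the share was 36.2%, 42.0%, 51.9% and 64.9%, while the level was 207, 155, 165 and 180.1 CPM.

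Alk UMIs were spread over many TMC4 cells. Of these cells, 213 held 1 UMI, 135 held 5 or more and 32 held 10 or more, with a maximum of 27. The 125 cells with the most UMIs held 51.8% of the Alk UMIs. In TMC3, 70 of the 110 positive cells held 1 UMI and 1 held 10 or more. In the label Thymocyte, Alk rested on 19 UMIs in 5 cells, 11 of them in 1 cell, and in Myeloid on 17 UMIs, 11 of them in 1 cell.

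Ncam2, the adhesion molecule, shared the mesenchymal pattern but had a higher level in a small label outside it. TMC4 held 2655 UMIs at 229.8 CPM (221 to 239), which is 73.9% of the stromal Ncam2 UMIs. TMC3 held 363 at 34.4 CPM (30.9 to 38.1), TMC2 23 at 0.862, capFb 15 at 0.928 and TMC1 5 at 0.356. TMC4 stood 6.69-fold above TMC3 (5.99 to 7.48), 248-fold above capFb, 267-fold above TMC2 and 645-fold above TMC1 (276 to 1988). Against the 4 labels pooled, at 6.02 CPM, it stood 38.2-fold higher (34.4 to 42.5). It stood 13.8-fold above vSMC_PC (10.6 to 18.4), where 38 of 56 UMIs lay in 1 of 452 cells, and 42.8-fold above it without that cell (27.1 to 72.4).

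The highest Ncam2 level was in nmSC, at 321 CPM (258 to 394), 1.40 times TMC4 (1.12 to 1.72). It rested on 91 UMIs in 14 of 39 cells, 31 of them in 1 cell, and the order changed with the processing. Without the cell with most UMIs in each label nmSC lay at 0.976 of TMC4, and after thinning to 5000 UMIs, where 1 of the 22 nmSC cells kept had Ncam2, at 0.884. It lay at 2.35 as the mean of the cells' CPM and at 1.89 after thinning to 1000. All 5 Schwann and neural markers were detected in nmSC, at a summed 384 CPM, and Sox10, a defining gene of Schwann cells, had 17 UMIs in 10 of its cells. The same list summed to 7.18 CPM in TMC4, with Sox10 at 0, and to 10.1 to 94.0 in the other mesenchymal labels. The nmSC cells came from the authors' clusters Endo-2 (16 cells), TEC-a (15), TEC-c (6) and Endo-1 (2), and their mesenchymal markers summed to 21373 CPM and their endothelial markers to 751. Mesenchymal markers summed to 6174 CPM in the 14 nmSC cells with Ncam2 and to 24747 in the 25 without. The part of the Schwann, neural and endothelial markers in the Ncam2 level was not tested. Several other labels rested on single cells. All 33 UMIs of mTEC2 (37.7 CPM) lay in 1 of 61 cells, 54 of the 57 UMIs of aaTEC2 (104 CPM) in 2 cells, and 45 of the 68 UMIs of Myeloid (11.3 CPM) in 1 cell.

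Ncam2 was less evenly spread over TMC4 cells than Alk. A UMI was found in 409 cells, a share of 32.7% (30.1 to 35.4), against 9.72% in TMC3, 0.957% in capFb, 0.519% in TMC2 and 0.363% in TMC1. Myeloid cells had 1.58%, Thymocyte 0.730% and B cell 3.35%. With 5000 UMIs per cell the shares were 26.4% in TMC4 and 6.54% in TMC3. Of the TMC4 cells, 117 held 1 UMI and 75 held 10 or more, with 2 cells at the maximum of 96. The 125 cells with the most UMIs held 75.0% of the Ncam2 UMIs. Across the 4 groups by depth, the Ncam2 share was 30.4%, 30.8%, 36.9% and 32.9%, and the level was 342, 261, 193 and 202 CPM.

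**Figure D2:**
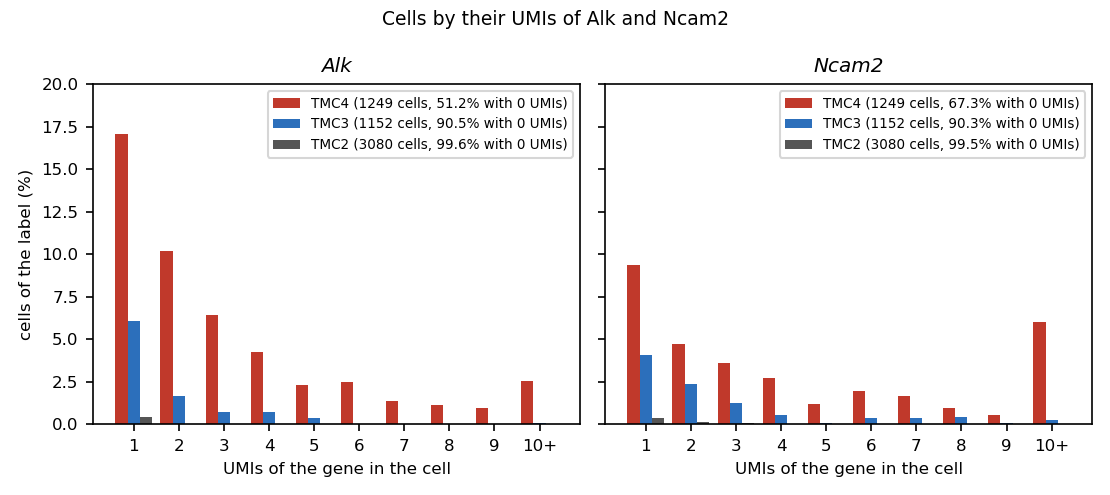
Share of cells (percent) with each number of UMIs of Alk and Ncam2 in TMC4, TMC3 and TMC2; cells with 0 UMIs are left off the bars and given in the legend. In TMC4, 32 of 1249 cells held 10 or more Alk UMIs and 75 held 10 or more Ncam2 UMIs.

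Alk and Ncam2 were found in the same TMC4 cells about as often as the product of their shares gives. Among 1093 TMC4 cells thinned to 5000 UMIs, 430 had Alk, 289 had Ncam2 and 120 had both, where the product of the shares gives 114. Alk was found in 41.5% of cells with Ncam2 and in 38.6% of those without. By level, Ncam2 was at 291 CPM in TMC4 cells with Alk and 201 in those without, a ratio of 1.44, with both medians at 0. Alk was at 196 CPM in cells with Ncam2 and 164 in those without, a ratio of 1.20. In TMC3, 63 of 979 cells had Alk, 64 had Ncam2 and 5 had both, where the product gives 4.12. There the ratio of level was 1.53 for Ncam2 by Alk and 0.953 for Alk by Ncam2. Mdk and Ncam2 were found together in 79 TMC4 cells, where the product gives 62.9. These are cells of 1 sample, so the numbers have no test.

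The chemokine Ccl21, a ligand of CCR7, differed with both genes in TMC4, in opposite directions. In TMC4 cells thinned to 5000 UMIs, Ccl21 was at 27974 CPM (median 52.0 UMIs) in cells with Alk and 16465 (18.0) in cells without, a ratio of 1.70. By Ncam2, it was at 11912 CPM (median 12.0) in cells with and 24257 (41.0) in cells without, a ratio of 0.491. In TMC3, Ccl21 was at 11444 CPM (median 12.0) in the 63 cells with Alk and 2755 (0) in the other 916, a ratio of 4.15. By Ncam2 in TMC3, mean and median went different ways, with 1606 CPM (median 1.00) in the 64 cells with and 3433 (0) in those without, a ratio of 0.468. Ccl19, the other CCR7 ligand, had ratios of 1.37 by Alk and 0.803 by Ncam2 in TMC4, and of 1.70 and 1.21 in TMC3. Tnfsf11, which encodes the cytokine RANKL, had a ratio of 1.69 by Alk in TMC4, on levels of 20.9 and 12.4 CPM, and 0.899 by Ncam2. The ratio by Alk was 1.12 for Il33, 1.07 for Vcam1, 0.961 for Pdgfra and 0.999 for Col1a1. Of the mural markers, Acta2 had a ratio of 1.20 by Alk and 0.477 by Ncam2, and Rgs5 1.34 and 1.13, and whether they bear on the Ccl21 values was not tested.

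Alkal2, the established ligand, was scarce, with 214 UMIs among all annotated stromal cells. TMC4, where Alk was highest, held 1 Alkal2 UMI, which is 0.0865 CPM (0.00219 to 0.482). TMC1 held 83 UMIs at 5.91 CPM (4.71 to 7.33), in 62 of 1377 cells (4.50%, 3.47 to 5.74), and 38.8% of all Alkal2 UMIs. TMC2 held 37 at 1.39 CPM, capFb 25 at 1.55 and TMC3 7 at 0.663. TMC4 lay at 0.0384 of the 4 labels pooled (0.000966 to 0.217) and at 0.0146 of TMC1 (0.000366 to 0.0838). Against TMC3 the interval of the ratio, 0.00290 to 1.02, holds 1. Myeloid cells had 0 of 505 cells with a UMI, which allows up to 0.728% by the exact interval.

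By level alone mTEC2 had the most Alkal2, at 38.8 CPM, but all 34 of its UMIs lay in 1 of 61 cells. That cell had 22040 UMIs over 4556 genes and came from the authors' cluster TEC-d. It held 15 UMIs of Epcam and 32 of Krt8, which mark epithelium, and 15 of Aire, the regulator of ectopic gene expression in medullary epithelium. It held none of Pdgfra, Alk, Ptn or Mdk. Of the 10 thymocyte genes it held 6 UMIs, of Ptcra and Lck, and none of Cd3e. Without it, mTEC2 had 0 Alkal2 UMIs and TMC1 was the highest label, and from TMC1 down to TMC2 neighbours in the order had ratio intervals that hold 1. Alkal1, the other ligand of this type, had 0 UMIs in every annotated stromal label. Ltk, the receptor closest to ALK, had 1 UMI in TMC4 and was highest in mTEC-prol, at 8.05 CPM on 11 UMIs, all of them in 1 of 76 cells.

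Ptn was the most widespread of the 3 ligand genes. It was highest in TMC2, at 3309 CPM (3287 to 3331), with a UMI in 91.2% of cells and a median of 18.0 per cell, and TMC2 held 45.7% of all Ptn UMIs. The epithelial label early Pr followed at 2294 CPM, with a UMI in 99.4% of cells and 14.4% of the UMIs, and lay 1.44-fold below TMC2 (1.42 to 1.46). TMC3 had 2055 CPM and 11.2% of the UMIs, nmSC 1647 and cTEC 1552. TMC4 had 925 CPM (908 to 943), with a UMI in 89.1% of cells and a median of 6. It did not differ from TMC1, at 928 CPM, beyond counting error (ratio 0.997, 0.972 to 1.02). It lay at 0.280 of TMC2 (0.274 to 0.285) and 0.450 of TMC3, and 7.11-fold above capFb (6.79 to 7.46), which had 130.1 CPM. Against the 4 labels pooled it lay at 0.499 (0.489 to 0.508).

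Among the remaining labels, Ptn was at 1080.2 CPM in vSMC_PC, 1039 in mTEC1, 623 in vEC, 365 in capEC and 316 in mTEC2. The lowest was mimetic(muscle), at 23.0 CPM on 12 UMIs. The 1391 CPM of mimetic(tuft) rested on 1 cell with 297 of 391 UMIs. Blood-derived labels carried Ptn too, with 726 CPM in B cell, 588 in Thymocyte and 139 in Myeloid. In Thymocyte, 103 of 411 cells held a Ptn UMI, and the 42 cells with most held 93.4% of the UMIs. Mesenchymal markers summed to 20641 CPM in the Thymocyte cells with Ptn and to 7887 in those without. In B cell these sums were 11264 and 5825, and in Myeloid 5818 and 1796. The part of cells captured together or of free RNA in these levels was not tested, and no doublet caller was run. In the thymocyte library, Ptn had 1 UMI in 5202 DP cells and 3 in 390 DN cells, while 266 of its 270 UMIs lay in 20 of the 170 cells of the joint label of B and myeloid cells (111 CPM).

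Mdk had its highest level in the epithelial label mTEC1, 669.7 CPM (649.8 to 690.0), with a UMI in 68.0% of cells (63.7 to 72.2) and 21.5% of all Mdk UMIs. The gene was uneven there: the median was 2.00 UMIs per cell, the maximum was 139, and the 49 cells with most held 54.2% of the UMIs. Next came mimetic(muscle) at 357 CPM, where 175 of 186 UMIs lay in 3 of 35 cells, and mTEC-prol at 299, and these did not differ beyond counting error (ratio 1.19, 0.998 to 1.42). TMC2 had 263 CPM and, as the largest label, 35.0% of all Mdk UMIs. The labels early Pr, TMC3 and TMC1 followed at 184, 161 and 132 CPM. TMC4 had 58.2 CPM (53.9 to 62.8), with a UMI in 29.2% of cells, against 8.71% in Myeloid, 12.2% in Thymocyte and 23.5% in B cell. It lay at 0.221 of TMC2 (0.204 to 0.240), 0.362 of TMC3 and 0.440 of TMC1, and 2.12-fold above capFb (1.87 to 2.39), which had 27.5 CPM. Against the 4 labels pooled it lay at 0.356 (0.329 to 0.385), and mTEC1 stood 11.5-fold above it (10.6 to 12.5). In the thymocyte library Mdk was at 0.952 CPM in DP, 1.02 in DN and 11.7 in the joint label of B and myeloid cells.

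**Figure D3:**
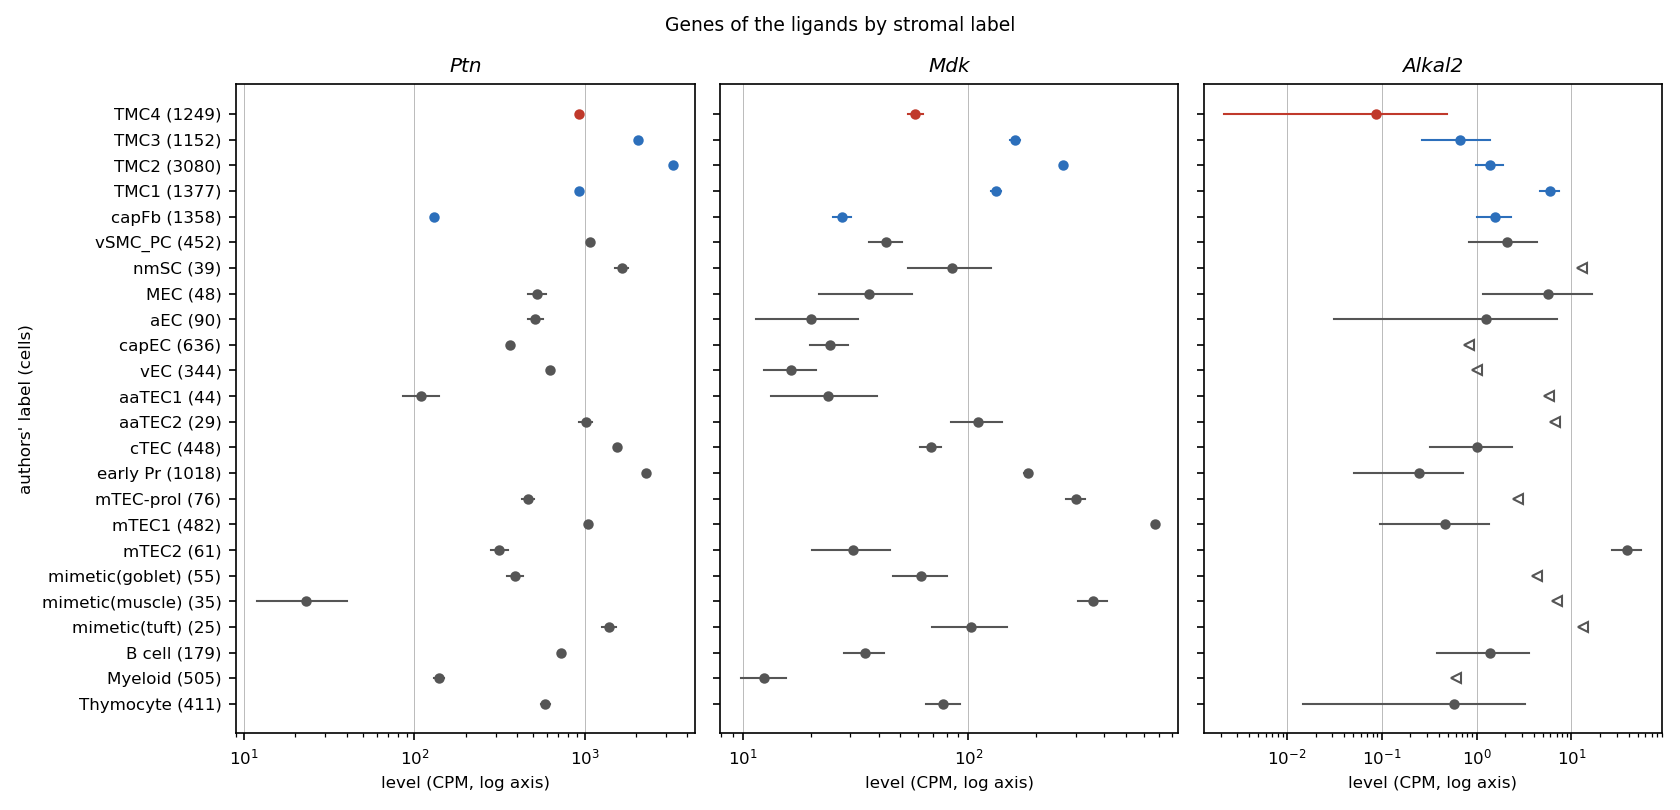
Levels of Ptn, Mdk and Alkal2 (CPM, log axis, each panel with its own range) in the 24 stromal labels of at least 20 cells. Points are summed UMIs over label totals, lines are exact Poisson intervals, and open triangles are upper limits of labels with 0 UMIs. The TMC4 point (red) lies below those of TMC2 and TMC3 for all 3 genes, for Alkal2 against TMC3 not beyond counting error, and the Alkal2 point of mTEC2 rests on 1 cell.

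The ligand genes thus had their largest sources outside TMC4: TMC1 for Alkal2, TMC2 for Ptn by level and by share of UMIs, and mTEC1 by level and TMC2 by share for Mdk. TMC4 held 0.467% of Alkal2, 5.54% of Ptn and 3.36% of Mdk UMIs, and 80.5% of Alk UMIs, while it made up 9.44% of the cells. The thymocyte library held little of the receptor, with 6 Alk UMIs in DP (0.317 CPM) and 3 in DN (0.277 CPM).

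The lead in TMC4 was set beside that of other genes. Of 12892 genes with at least 20 UMIs in TMC4, 243 (1.88%) were at least 3-fold above each other mesenchymal label. Alk was the 9th and Ncam2 the 27th of them by ratio, and, since they were chosen for this, nothing is read from their places. Ptn and Mdk passed the minimum and were not among the 243, and Alkal2, with 1 UMI, did not pass it. The 10 named genes with the largest ratio over the next mesenchymal label were Slc7a11 (16.2), Cntn1 (13.7), Tnn (12.8), Relt (10.7), Tlr8 (10.3), Dcc (10.1), Fgf23 (9.89), Alk (9.39), Lrp8 (9.27) and Nphs1 (8.73). Cntn1 encodes an axonal adhesion molecule, Dcc a netrin receptor, Nphs1 nephrin and Tnn tenascin-N. The next mesenchymal label was TMC1 for Cntn1 and TMC3 for the other 9. Relt and Tlr8 rested on 47 and 45 UMIs in TMC4. Over all stromal labels, TMC4 was the highest for Tnn (60.4 CPM), Tlr8 (3.89), Dcc (67.8), Alk and Nphs1 (98.3). Slc7a11 was higher in Thymocyte (751 CPM against 111), Fgf23, a hormone of phosphate balance, in vEC (260.4 against 178), and Cntn1 in mTEC2 (44.6 against 23.4). Relt was higher in mTEC-prol (39.5 against 4.07) and Lrp8 in mTEC2 (46.8 against 6.14).

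Partners of these proteins were read from lists, as counts of genes at least 2-fold higher or lower in TMC4 than in the 4 other mesenchymal labels pooled. Of 13530 genes with at least 100 UMIs in the 5 mesenchymal labels together, 10.3% were higher and 11.2% lower by that rule, and the median ratio was 1.05. Of 20 receptors and partners of pleiotrophin and midkine, 16 passed the minimum, 2 were higher, 2 lower and 12 between, with a median of 0.854. Itga6, the laminin receptor integrin alpha-6, was 15.0-fold higher in TMC4 than in the pooled labels (122 CPM, 13.6 to 16.6), and was higher still in capEC (463 CPM). Its level was 27.7 CPM in TMC3 and 120.4 in vSMC_PC, and mTEC1 (216), early Pr (171) and cTEC (167) lay above TMC4. Sdc3, a heparan sulfate proteoglycan of the syndecan family, was 4.27-fold higher than in the pooled labels (46.6 CPM, 3.82 to 4.78). TMC4 had its highest level of any label, followed by capEC at 40.7 CPM, and TMC3 had 32.6. Lrp1, an endocytic receptor, lay at 0.171 (167 CPM in TMC4 against 977), and Ptprb, a phosphatase of endothelium, at 0.279 on 12 UMIs.

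Ptprz1, the phosphatase best known as a pleiotrophin receptor, was under the minimum, with 8 UMIs in TMC4 (0.692 CPM). It was highest in epithelial labels, at 171 CPM in mTEC1, 157 in early Pr and 151 in cTEC. Ncl (nucleolin) and Itgb1 did not differ by 2-fold, with ratios of 1.01 and 1.16. Of the syndecans besides Sdc3, Sdc1 had a ratio of 0.695, Sdc2 of 0.645 and Sdc4 of 0.560, so Sdc3 was the 1 of 4 that was higher.

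Of 19 genes of the NCAM family and its partners, 16 passed the minimum, 5 were higher and 6 lower, with a median of 0.933. The 5 include Ncam2, which was chosen by its lead in TMC4, so its place among them was fixed beforehand. Besides Ncam2, the higher ones were Cntn1 (27.6-fold), St8sia4 (9.53-fold, 8.12 to 11.2), Fgfr3 (6.52-fold) and Fgfr2 (3.34-fold). Each was higher still outside the mesenchymal labels: Cntn1 (44.6 CPM) and Fgfr3 (36.6) in mTEC2, St8sia4 in capEC (170.4) and Fgfr2 in early Pr (269). Within the pooled labels, St8sia4 was at 17.5 CPM in TMC3 and Fgfr2 at 13.5 in TMC1. St8sia4 and St8sia2 encode the enzymes that add polysialic acid to NCAM. The former was at 35.0 CPM in TMC4, and the latter had 0 UMIs there against 2.06 CPM in the others, with an upper limit of 0.157 on the ratio. Ncam1, the closest relative, was nearly even, at 12.1 CPM against 9.44 (ratio 1.28, 1.06 to 1.54), and highest in nmSC at 190.5. Lower in TMC4 were also Gfra1 (0.0211), Nrcam (0.0424), Chl1 (0.0879), Ret (0.134) and Fgfr1 (0.300). Fgfr1 and Fgfr2 thus lay on opposite sides, with 101 CPM against 338 for Fgfr1 and 19.7 against 5.92 for Fgfr2.

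Of 26 genes of signalling below ALK, 20 passed the minimum, 1 was higher, 3 lower and 16 between, with a median of 1.01. Gab1, a docking protein of receptor kinases, was 3.50-fold higher than in the pooled labels (475 CPM, 3.39 to 3.62). TMC4 had its highest level of any label, followed by nmSC at 293 CPM, and TMC3 had 280.2. Irs1, an adaptor of insulin and other receptors, lay at 0.327, Spry2, a feedback inhibitor, at 0.385, and Pik3r1, the regulatory subunit of PI3-kinase, at 0.429. Frs2, an adaptor of ALK and FGF receptors, had a ratio of 1.61 (1.50 to 1.72). Its highest level was in TMC4, at 94.2 CPM, with TMC3 next at 76.5. Shc1 and Grb2 had ratios of 1.05 and 1.48. Mycn, a MYC family transcription factor, and Gata3 were under the minimum, with 1 and 5 UMIs in TMC4. The transcription factor Hand2 was at 29.8 CPM in TMC4 against 26.7 in the others (ratio 1.11, 0.990 to 1.25).

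**Figure D4:**
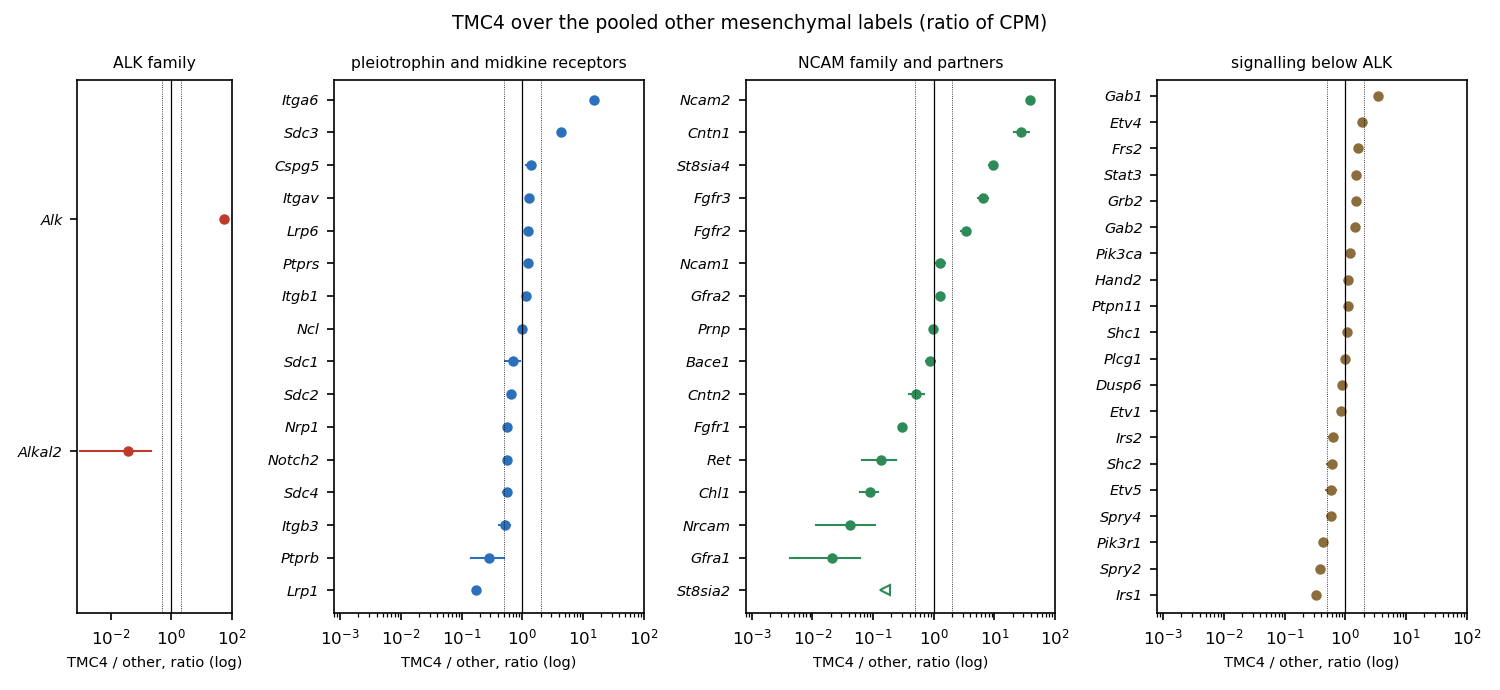
Ratio of the level in TMC4 to that in the pooled other mesenchymal labels (log axis) for the genes of each list that had at least 100 UMIs in the 5 mesenchymal labels. Lines are intervals for counting error, the solid line marks a ratio of 1, dotted lines mark 2-fold differences, and the open triangle is the upper limit for St8sia2. Alk, Ncam2, Cntn1, Itga6 and St8sia4 lie farthest to the right, from 9.53 to 52.2.

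Pattern likeness was measured as Pearson's r of log2(CPM + 1) over the 24 labels, as a description over labels that share a library. Among 13973 named genes with at least 100 UMIs, the genes most like Alk were Iqsec3 (0.84), Spic (0.81), Rasl12 (0.79), Ager (0.78) and Slc45a3 (0.78). The order depended on the measure: 2 of these 5 stayed among the first 5 by Spearman's rho, 2 with a pseudocount of 10 and 1 over labels of at least 50 cells. Iqsec3 and Spic were also highest in TMC4, at 9.09 and 44.0 CPM, while Rasl12 and Ager were highest in vSMC_PC, at 71.2 and 295. Csmd1 (0.84), Frmd8 (0.83) and Scg3 (0.80) were most like Ncam2. For Ptn these were Pitpnm3 (0.88), Prelid2 (0.80) and Mycbp2 (0.80), and for Mdk Ttll3 (0.79), St3gal3 (0.77) and Tubg2 (0.76). The genes most like Alkal2, Ces1c (0.89), Lrp1b (0.85) and Tph1 (0.84), were highest in mTEC2, the label whose Alkal2 came from 1 cell.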

How the data were processed

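The deposited values are counts: whole UMI counts per gene and barcode of each library. Cell Ranger 8.0.0, Seurat 5.3.0 and the mRatBN7.2 build are named in the submitters' processing notes, and the annotation is not given in the sources used here. Gene coordinates were not used with the counts, since the reference tables are of GRCr8. They served only to set the length of the promoter runs shown and of the promoters set beside them. Cells took the authors' projected label, or else the initial cluster. That clustering used the counts described here. No doublet caller was run and no cell was removed.

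The members and the gene lists were chosen with earlier results of these data known. UMIs were summed per label of at least 20 cells (24 of 29 labels) and divided by the label total. Intervals are exact Poisson for levels, Clopper-Pearson for shares and conditional binomial for ratios. A ratio over a label with under 3 UMIs was set against 3. The text names the members, the 10 leading genes of TMC4, the likest genes (5 for Alk, 3 for each other), the list genes and cell type markers. Thinning drew 1000 or 5000 UMIs per cell (seed 7), leaving out 83 and 1864 shallower cells. Alternatives were cell filters, other totals and scaling, the mean of cells, thinning, label choices and left-out cells. The rule for leading genes was tested on simulated data. Those were drawn with counting noise alone and lack the uneven spread over cells seen here, so nothing is read from them about the genes called. The work used pandas 2.3.3, SciPy 1.17.1 and NumPy 2.4.6 under Python 3.11.15, with matplotlib 3.10.9 for plots.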

Additional observations from a re-analysis of the deposited data

Results flagged for a closer look

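The stromal library held 2934 barcodes with no annotation, which enter no comparison, and 4 of the 5 genes had UMIs there above the limit of 0.346 CPM that 3 UMIs set. Alk was at 18.4 CPM (159 UMIs in 74 barcodes) against 19.0 over all annotated cells. Ncam2 was at 18.8 CPM (163 UMIs, 57 of them in 1 barcode) against 27.3. Mdk was at 118 CPM against 152, and Ptn at 487 against 1467. Alkal2 had 1 UMI. Of these barcodes, 67 had more genes than any annotated cell, 2039 had fewer and 828 lay between. The barcodes between held 124 of the Alk UMIs, at 37.2 CPM. What these barcodes hold was not tested.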

How the results depend on the processing

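Depth and single cells limit these results, and 1 sample per group leaves differences between animals unmeasured. No paired analysis was possible because no group held more than 1 sample. Of 155 recomputed values, 4 crossed to the other side of 1, 52 left the counting interval of the value given (for counts, 1.5 times) and 99 did neither. No alternative brought the ratio of TMC4 to the highest other mesenchymal label under 7.63 for Alk or 6.32 for Ncam2. Leaving out each label's top cell of the member, the vSMC_PC top cell for Ncam2 or the shared barcodes was chosen after seeing the data. Labels nmSC, mTEC1 and mTEC2 could not be compared under the initial cluster alone, nor nmSC among labels of at least 50 cells. The cause of the changes was not tested, except that thinning lowers detection by construction.

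For Alkal2, mTEC2 over the next label (6.57) became 0 without cells holding thymocyte-gene UMIs and 0 without the top cell, since 1 cell held all its UMIs, and 3.28 after thinning to 1000. For Ncam2, nmSC over TMC4 (1.40) became 0.884 after thinning to 5000 and 0.976 without the top cell, but 2.35 as the mean of cells and 1.89 after thinning to 1000.

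With the mean of cells in place of summed UMIs, TMC4 over the highest other mesenchymal label was 12.7 for Alk and 8.23 for Ncam2, and over the pooled labels 63.6 for Alk, 44.7 for Ncam2, 0.453 for Ptn and 0.319 for Mdk. The lead of TMC2 for Ptn was then 1.41. Thinned to 1000, the first 2 ratios were 13.6 and 9.08, the pooled ones 62.4 for Alk, 53.8 for Ncam2, 0.429 for Ptn, 0.328 for Mdk and 0 for Alkal2, and the Ptn lead 1.39. The count of 243 leading genes was 108. Thinned to 5000, Ncam2 gave 7.87 and, pooled, 44.2, Ptn 0.464 and Alkal2 0. With vSMC_PC among the mesenchymal labels, Alk gave 7.63 and, pooled, 40.9, and Ptn 0.509. Median-of-ratios scaling gave 0.457 for Ptn and 0.327 for Mdk pooled and a Ptn lead of 1.53. Totals without mitochondrial, ribosomal protein and haemoglobin genes gave a Ptn lead of 1.37, and the initial cluster 1.55. Without the top cells, Ncam2 gave 7.49 and, pooled, 42.9, and Alkal2 0. The lead of mTEC1 for Mdk (1.88) was 2.48 without the top cells, 2.18 below the 99th percentile of UMIs, 2.24 over labels of at least 50 cells and 1.52 without cells holding thymocyte-gene UMIs. At least 2-fold gave 559 leading genes and at least 5-fold 74. Of the 5 genes most like Alk, 2 stayed among the first 5 by Spearman's rho, 2 with a pseudocount of 10 and 1 over labels of at least 50 cells. Shares of TMC4 cells with a UMI, thinned to 1000 and 5000, were 14.0% and 39.3% for Alk, 13.9% and 26.4% for Ncam2, 4.96% and 21.8% for Mdk and 0 and 0 for Alkal2, and 48.5% for Ptn at 1000.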
